A study of Mus musculus with 28 samples.

Results

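Type I interferon-stimulated genes were followed in hippocampal microglia of 5xFAD and WT mice. The 42 genes were taken by their symbols from the count table, which lists 48587 genes, and all 42 were among the 15298 genes with enough reads to be tested. Microglia, the resident macrophages of the brain, were sorted from the hippocampus of 28 mice as viable CD11b+CD45low cells, with a dump gate that included CD3, CD45R, Ly6C and Ly6G, and 1 RNA library was made per mouse. Of the WT mice 5 were SPF, 4 GF and 5 ABX, and of the 5xFAD mice 3 were SPF, 5 GF and 6 ABX, all at 16 weeks of age, and each is named here by its library title. 5xFAD mice were heterozygous males on a C57BL/6J background that carry human APP with the Swedish, Florida and London mutations and human PS1 with a pair of mutations, both driven in neurons by the Thy-1 promoter. WT mice were their littermates without the transgenes. SPF mice had a normal microbiota free of specific pathogens, GF mice were born and kept germ-free, and ABX mice were SPF mice that drank vancomycin, cefoxitin, gentamicin and metronidazole for 8 weeks. Since GF mice came from Bern and all others from Freiburg, the germ-free state cannot be told apart from the facility. Mouse FAD_GF_201 is counted with the GF 5xFAD mice, as its title and genotype say, although its description reads WT.

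Type I interferons are secreted when cells sense viral or misplaced nucleic acids, and they act on neighbouring cells through a receptor made of IFNAR1 and IFNAR2. The receptor's kinases JAK1 and TYK2 switch on a complex that holds STAT2 and IRF9 and binds the interferon-stimulated response element (ISRE) of its target genes. The products of these targets restrict viruses, sense nucleic acids or feed back on the pathway, and microglia with high levels of them are known from ageing brain and from amyloid mouse models.

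Libraries held 14441610 to 29977395 reads on genes. Microglial markers were abundant throughout, and the 10 markers summed to 63200 to 70500 CPM (counts scaled to a common library total) in WT mice and to 50600 to 61600 CPM in 5xFAD mice. Other cell types differed between groups. The 6 neutrophil markers summed to 61.1 to 263 CPM in SPF 5xFAD mice and to 144 CPM in mouse FAD_ABX_1151, but to at most 0.294 CPM in the other 24 mice, although Ly6G+ cells were gated out. Monocyte markers summed to 16.4 to 39 CPM in SPF 5xFAD, 14.4 to 52 CPM in ABX 5xFAD and 6.02 to 24.9 CPM in GF 5xFAD mice, against 3.72 to 16.9 CPM in WT mice, and their defining gene *Ly6c2* had no reads in 24 libraries. Markers of border-associated macrophages reached 32.8 to 242 CPM in ABX 5xFAD mice and stayed between 3.48 and 77 CPM elsewhere. T and NK cell markers reached at most 0.487 CPM. In sorted bulk RNA, fewer cells of a type and less RNA per cell cannot be told apart. The library descriptions follow 3 numbering patterns. One holds the WT mice of SPF and ABX housing, another the SPF 5xFAD mice with FAD_ABX_1151, and the third every GF mouse together with the remaining 5 ABX 5xFAD mice. Numbering pattern and genotype therefore cannot be told apart in SPF and ABX mice, whereas the GF mice share 1 pattern. Nor can pattern and housing be told apart between GF and SPF mice of either genotype or between GF and ABX WT mice. ABX and SPF 5xFAD mice share a pattern only through FAD_ABX_1151.

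Promoters of the genes were searched for the letters of the ISRE. RefSeq promoters (GRCm38.p6, 250 bases before to 50 bases after each start) were at hand for 32 of the 42 genes. The ISRE core GAAANNGAAA, searched on both strands (TTTCNNTTTC on the other) with overlapping matches counted separately, was found in 18 of these 32, or 56.2%, against 3.99% of the 27025 symbols with a promoter and 3.44% of all 32851 promoters. The promoters of the 14 genes without a match, among them *Irf7*, *Oasl2* and *Sp100*, lack these letters in this window only. For 6 genes, stretches are printed with the matches in capitals and up to 30 bases on either side, 5′ to 3′ on the strand of the gene. *Bst2*, *Oas1a* and *Phf11b* are shown because their levels separated 5xFAD from WT mice in all 3 housings and their matches lie before the start (those of *Ifitm3* lie after it and are not printed), *Isg15* for its 3 overlapping matches, and *Ifit3* with *Ifit3b* because they are neighbouring copies.
Bst2: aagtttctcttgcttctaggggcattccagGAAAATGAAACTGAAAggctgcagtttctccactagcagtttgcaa
Oas1a: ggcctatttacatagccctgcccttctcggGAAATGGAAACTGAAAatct
Phf11b: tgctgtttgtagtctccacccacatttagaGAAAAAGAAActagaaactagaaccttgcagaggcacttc
Isg15: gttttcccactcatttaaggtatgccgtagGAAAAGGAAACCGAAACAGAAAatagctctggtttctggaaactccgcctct
Ifit3: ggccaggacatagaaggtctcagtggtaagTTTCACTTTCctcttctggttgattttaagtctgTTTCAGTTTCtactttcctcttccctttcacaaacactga
Ifit3b: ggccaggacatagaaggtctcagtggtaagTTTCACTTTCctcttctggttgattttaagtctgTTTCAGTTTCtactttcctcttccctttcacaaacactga
These are chr8:71537557-71537632 (minus strand), chr5:120907526-120907575 (minus strand), chr14:59341341-59341410 (minus strand), chr4:156200845-156200926 (minus strand), chr19:34583343-34583446 (plus strand) and chr19:34607739-34607842 (plus strand). In *Bst2* the matches began 130 and 124 bases before the start, in *Oas1a* 20 and 14, in *Phf11b* 50 and in *Isg15* between 78 and 66. The *Ifit3* and *Ifit3b* stretches were identical over all 104 bases, although their matches began 156 and 122 bases before the start in the former and 188 and 154 in the latter. Averaged over housings, 5xFAD exceeded WT by a median of 1.22 on the log2 scale for the 18 genes with a match, of which 14 rose, and by 1.07 for the 14 without, of which 13 rose. For the 10 genes without a promoter at hand, of which 9 rose, the median was 1.47, and 14.3% of all genes tested rose.

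The interferon-stimulated genes lay higher in 5xFAD than in WT mice under SPF, GF and ABX conditions, and the group means of all mice lay close together across the housings of 1 genotype. In WT mice the mean level over the 42 genes was 2.92 ± 0.29 log2 CPM (SD, n = 5) under SPF, 2.95 ± 1.03 (SD, n = 4) under GF and 3.09 ± 0.16 (SD, n = 5) under ABX conditions. In 5xFAD mice it reached 4.49 ± 0.01 (SD, n = 3) under SPF, 4.56 ± 0.53 (SD, n = 5) under GF and 4.54 ± 0.55 (SD, n = 6) under ABX conditions. The differences between genotypes were 1.56, 1.61 and 1.45 on the log2 scale in SPF, GF and ABX mice. No difference between housings in this mean exceeded 0.17 with all mice. Median differences over the 42 genes (edgeR) were larger in some of these comparisons. In WT mice, GF exceeded SPF by a median of 0.41 (33 genes above 0) and ABX exceeded SPF by 0.141 (34 genes). ABX WT mice lay below GF WT mice, at -0.308 (9 genes above 0). In 5xFAD mice, GF exceeded SPF by 0.322 and ABX exceeded SPF by 0.254, each with 31 genes above 0. The median of ABX minus GF was -0.058 there (18 genes above 0). In every housing but GF the 5xFAD mice lay above all WT mice of the same housing. Mouse WT_GF_230, at 4.41, lay among the 5xFAD mice, while the other GF WT mice lay at 2, 2.52 and 2.87. Without WT_GF_230 the GF WT mean was 2.46 ± 0.44 (SD, n = 3), with a log2 difference of -0.46 from SPF WT mice, and ABX WT mice exceeded it by 0.63. The difference between genotypes in GF mice was then 2.1.

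**Figure D1:**
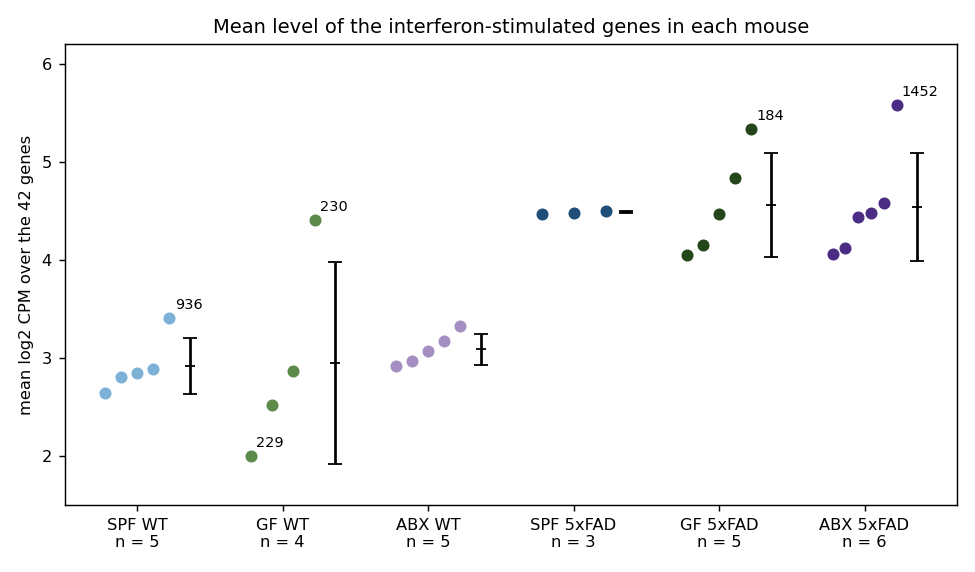
Mean log2 CPM over the 42 interferon-stimulated genes (vertical axis) in each of 28 mice by group, with 1 point per mouse and the group mean ± SD as a bar; numbered points are mice named in the text. All 5xFAD mice lie at 4.05 or above, and mouse 230 at 4.41 is the only WT mouse in that range.

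Gene by gene, 15 of the 42 genes rose in SPF 5xFAD against SPF WT mice, 18 in GF and 23 in ABX mice, and 36 rose on the average over the 3 housings (edgeR, adjusted p under 0.05). None fell in any of these. Of all genes tested, 3.73% rose and 0.837% fell in SPF mice, 9.43% rose and 6.2% fell in GF mice, 9.45% rose and 4.98% fell in ABX mice, and 14.3% rose and 10.8% fell on the average. The median log2 fold change of the 42 genes was 1.33 in SPF, 1.19 in GF, 1.46 in ABX mice and 1.27 on the average, where that of all genes tested was -0.03, -0.03, -0.01 and -0.04. Values that did not pass the test pointed mostly upward too, since 41, 40 and 41 of the 42 genes had a log2 fold change above 0 in SPF, GF and ABX mice. The exceptions were *Ifi35* in SPF, *Slfn8* and *Ddx58* in GF and *Slfn8* in ABX mice, with log2 fold changes of -0.07, -0.28, -0.50 and -0.004. The 3 comparisons share no mice, and 12 genes rose in all 3 of them, against 2.76% of all genes tested. These were *Sp100*, *Phf11b*, *Zbp1*, *Ifi204*, *Ifit2*, *Oas1a*, *Oasl2*, *Ifitm3*, *Bst2*, *Ifi27l2a*, *Rtp4* and *Ifi44*.

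Single mice weighed on these counts. Without mouse WT_GF_230, 31 genes rose in GF mice and the median log2 fold change of all 42 genes was 1.90, while without WT_GF_231, WT_GF_199 or FAD_GF_184 only 10, 11 and 11 rose. In ABX mice the count lay between 18, without FAD_ABX_1452, and 26, without FAD_ABX_1151, and in SPF mice between 11 and 16. Leaving out mice FAD_ABX_1151 and FAD_ABX_1482 together gave 16, 20 and 27 genes in SPF, GF and ABX mice. A fit of the SPF groups alone raised 34 genes in place of 15, and voomWithQualityWeights, the method of the study, raised 29 there. Markers of neutrophils, monocytes and border-associated macrophages rose with the genotype in SPF mice, with 5 of 5, 1 of 4 and 4 of 6 tested. In ABX mice 2 of 4 monocyte markers rose and 1 fell, all 6 border-associated macrophage markers rose, and the 5 neutrophil markers passed too, although FAD_ABX_1151 alone held 144 CPM of them and the other ABX 5xFAD mice at most 0.285. Their part in the result was not tested there. In GF mice 0 of 4 monocyte and 0 of 6 border-associated macrophage markers tested rose or fell. The 5 neutrophil markers were tested because of their reads in other groups. They summed to at most 0.0907 CPM in GF mice, so the test could show no change there. Other lists did move in GF mice. Of 4 tested markers of plasmacytoid dendritic cells 2 rose and 1 fell, where *Cox6a2* and *Pacsin1* had medians of 2.06 and 9.84 CPM in WT and 35.2 and 35.4 CPM in 5xFAD mice. The same list gave 2 that rose in SPF mice and 2 that rose and 1 that fell in ABX mice, and 2 of its 6 markers, *Ly6d* and *Klk1*, had no reads in 28 and 27 libraries. In GF mice 1 of 3 endothelial markers fell, and 1 of 5 astrocyte markers rose and 1 fell. Of the 3 endothelial markers 1 rose in SPF mice, and 1 rose and 1 fell in ABX mice, where 1 of 2 tested B cell markers rose too. Of the 10 microglial markers 3, 4 and 5 fell in SPF, GF and ABX mice, and 1 rose in each. The part of these markers in the result was not tested.

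**Figure D2:**
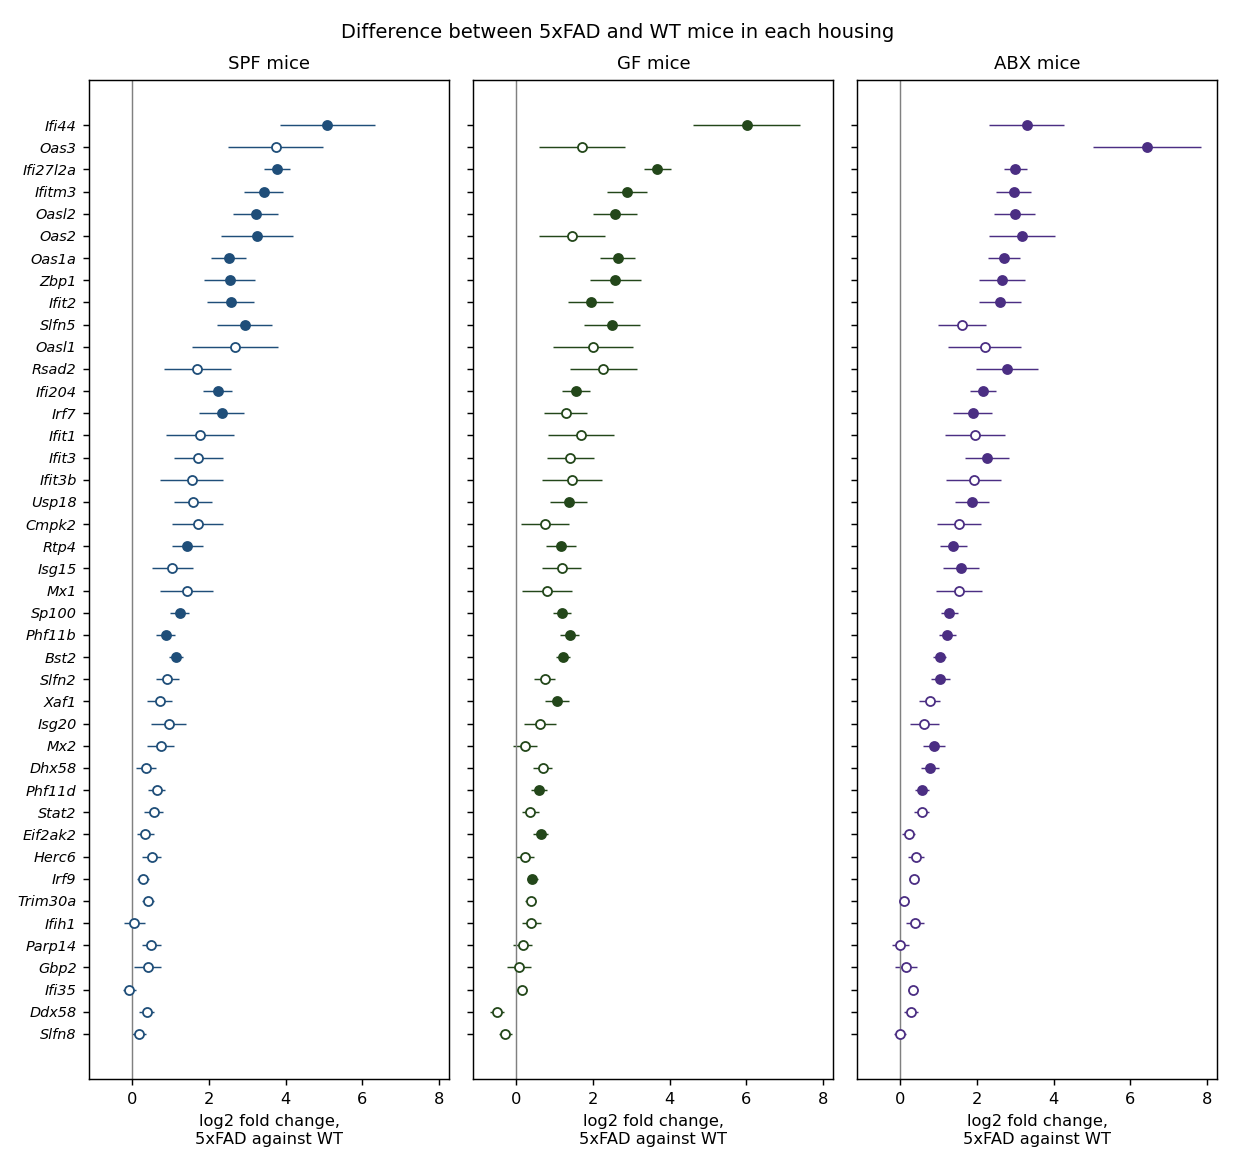
Difference between 5xFAD and WT mice on the log2 scale (horizontal axis) with its SE for the 42 genes, ordered by the average over housings, in SPF, GF and ABX mice; filled points passed the test (edgeR, adjusted p under 0.05). Nearly all points lie to the right of 0, and *Ddx58* and *Slfn8* lie left of it in GF mice.

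Every 5xFAD mouse exceeded every WT mouse for 34, 7 and 18 of the 42 genes in SPF, GF and ABX mice, where 9.44%, 9.14% and 4.68% of all genes tested showed this. Mouse WT_GF_230 was the highest of the GF WT mice for 37 of the 42 genes, but for 24% of all genes tested. *Sp100*, *Phf11b*, *Oas1a*, *Ifitm3*, *Bst2* and *Ifi27l2a* separated the genotypes without overlap in all 3 housings, and 35 genes did so in at least 1, as did 2.55% and 15.2% of all genes tested.

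The small membrane proteins gave the clearest values. *Ifi27l2a* (chr12:103442167-103443680, minus strand, a gene of the interferon-alpha-inducible protein 27 family, GENCODE M21 on GRCm38) stood at 1.94, 1.33, 1.19, 1.99 and 2.24 log2 CPM in the SPF WT mice, at 2.97, 1.91, 2.58 and 3.18 in the GF WT mice and at 2.53, 1.19, 3.14, 2.25 and 2.91 in the ABX WT mice. It stood at 5.60, 5.42 and 5.59 in the SPF 5xFAD mice, at 6.44, 6.32, 6.54, 6.84 and 5.58 in the GF 5xFAD mice and between 4.53 and 6.13, with a median of 5.46, in the ABX 5xFAD mice. The lowest 5xFAD mouse, FAD_ABX_1151, lay well above the highest WT mouse, and WT_GF_230 did not stand apart here. *Ifi27l2a* rose by 3.78 ± 0.34 (log2, SE, adjusted p = 3.02e-09) in SPF, 3.68 ± 0.34 (adjusted p = 3.59e-09) in GF and 3.00 ± 0.30 (adjusted p = 1.76e-08) in ABX mice (edgeR), or 13.7-fold, 12.8-fold and 8-fold. *Ifitm3* (chr7:141009586-141010770, minus strand), which blocks the entry of viruses at endosomal membranes, stood at 1.70 to 2.88 in SPF WT, 2.18 to 3.34 in ABX WT and 1.36, 1.44, 4.63 and 2.24 log2 CPM in GF WT mice, where 4.63 belongs to WT_GF_230. In 5xFAD mice it stood at 5.35, 5.56 and 5.73 under SPF, at 5.77, 5.75, 6.57, 6.45 and 4.85 under GF and between 4.52 and 6.53, median 5.60, under ABX conditions. The groups did not overlap within a housing, but the highest GF WT mouse passed the lowest ABX 5xFAD mouse. *Ifitm3* rose by 3.42 ± 0.52, 2.89 ± 0.52 and 2.96 ± 0.47 (log2, SE) with adjusted p of 4.25e-05, 0.000153 and 3.78e-05. *Bst2* (chr8:71534255-71537456, minus strand) encodes tetherin, which holds budding virions on the cell surface. Its level was high already in WT mice, with 5.58 to 5.88 log2 CPM under SPF, 5.75, 5.96, 6.41 and 5.82 under GF and 5.72 to 5.89 under ABX conditions. In 5xFAD mice *Bst2* lay at 6.89, 6.76 and 6.93, at 7.10, 7.24, 7.53, 7.47 and 6.69, and between 6.23 and 7.35 with a median of 6.79. Its rise was smaller, with 1.15 ± 0.18, 1.23 ± 0.18 and 1.03 ± 0.16 (log2, SE) in SPF, GF and ABX mice and adjusted p of 0.000102, 9.26e-06 and 2.92e-05. Its pooled SD between mice of a group was 0.28 on the log2 scale.

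**Figure D3:**
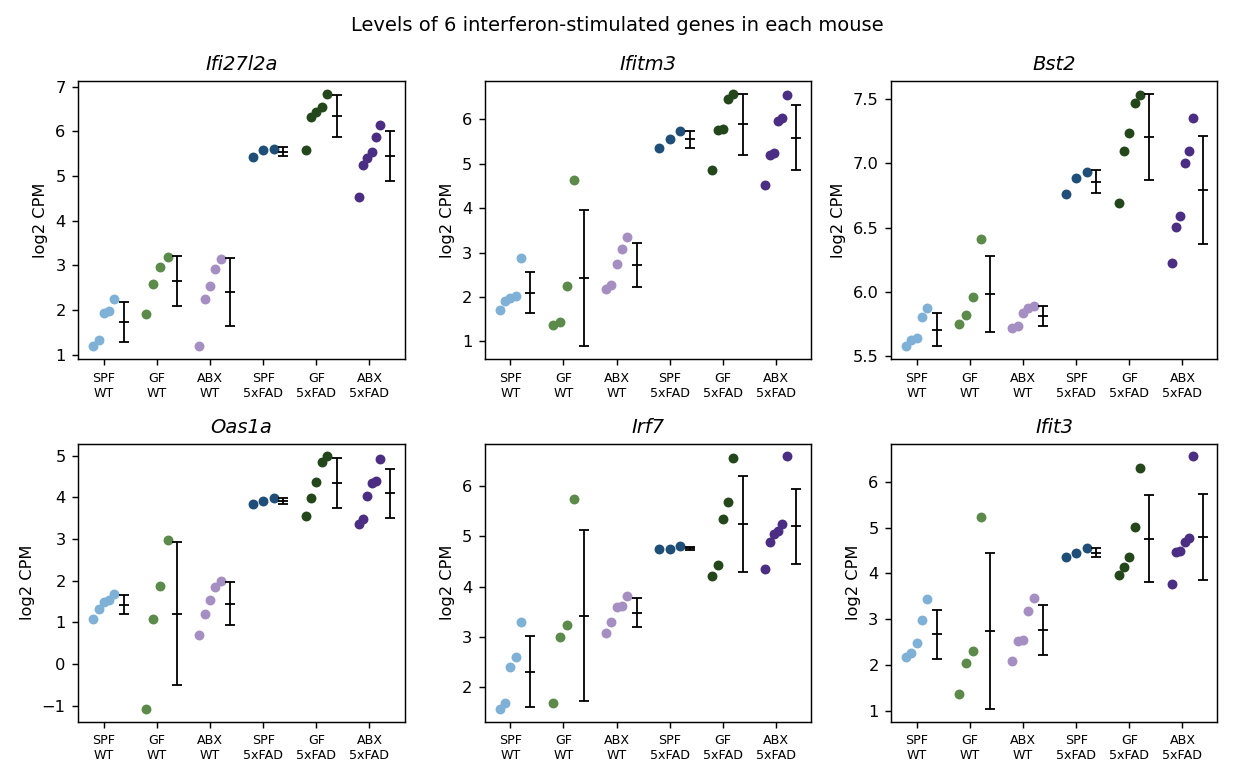
Log2 CPM (vertical axes, separate scales) of *Ifi27l2a*, *Ifitm3*, *Bst2*, *Oas1a*, *Irf7* and *Ifit3* in each mouse by group, 1 point per mouse, with the group mean ± SD as a bar. The 5xFAD points lie above the WT points of the same housing for the first 4 genes, and 1 GF WT mouse lies among the 5xFAD mice for *Irf7* and *Ifit3*.

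All 6 transcription factors and regulators of the list rose on the average over housings, and 3, 4 and 4 of them rose in SPF, GF and ABX mice. *Irf7* (chr7:141262706-141266481, minus strand), the factor that amplifies interferon production, lay at 1.69, 2.59, 1.56, 2.40 and 3.30 log2 CPM in SPF WT and at 4.74, 4.75 and 4.80 in SPF 5xFAD mice, and rose by 2.33 ± 0.59 (log2, SE, adjusted p = 0.015). In ABX mice it rose by 1.89 ± 0.51 (adjusted p = 0.0115), from 3.07 to 3.82 in WT mice to between 4.35 and 6.59 in 5xFAD mice. GF WT mice lay at 2.99, 1.68, 5.75 and 3.24 and GF 5xFAD mice at 4.42, 5.34, 6.56, 5.69 and 4.21, so that WT_GF_230 overlapped with them and the difference of 1.29 ± 0.55 had an adjusted p of 0.119. *Phf11b* (chr14:59320964-59341351, minus strand), a PHD finger gene, rose by 0.87 ± 0.25, 1.40 ± 0.24 and 1.24 ± 0.22 with adjusted p of 0.038, 0.000103 and 0.000162. Its GF 5xFAD mice stood at 4.94, 5.09, 5.71, 5.31 and 4.58 log2 CPM, with the lowest just over WT_GF_230 at 4.57 and the other GF WT mice at 3.54, 3.24 and 3.36. *Sp100*, a nuclear body protein, rose by 1.24, 1.19 and 1.29 on the log2 scale with adjusted p of 0.00114, 0.000508 and 6.38e-05. *Stat2* and *Irf9*, which belong to the ISRE-binding complex, rose on the average by 0.50 ± 0.13 and 0.35 ± 0.08 (log2, SE, adjusted p = 0.00354 and 0.00115), a fold of 1.41 and 1.28. *Irf9* also rose in GF mice (adjusted p = 0.0341).

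Nucleic acid sensors were divided. *Zbp1*, a sensor of Z-form nucleic acids that can trigger cell death, rose in SPF, GF and ABX mice by 2.54 ± 0.66, 2.58 ± 0.66 and 2.66 ± 0.60 (log2, SE) with adjusted p of 0.0187, 0.00663 and 0.00268. *Ifi204* (chr1:173747293-173766943, minus strand), a DNA sensor of the HIN-200 family, rose by 2.23 ± 0.38, 1.57 ± 0.36 and 2.15 ± 0.34 with adjusted p of 0.000192, 0.00268 and 3.24e-05. It stood at 2.33 to 2.98 log2 CPM in SPF WT and at 4.88, 4.78 and 4.84 in SPF 5xFAD mice, and at 1.57 to 3.60 in ABX WT and 4.47 to 5.80 in ABX 5xFAD mice. In GF mice, *Ifi204* lay at 3.10, 2.58, 4.48 and 3.39 in WT and at 4.81, 4.23, 6.00, 5.34 and 4.54 in 5xFAD mice, where WT_GF_230 passed the lowest 5xFAD mouse. The cytosolic RNA sensors *Ddx58* (RIG-I) and *Ifih1* (MDA5) passed in none of the 4 comparisons of genotype, with average log2 differences of 0.06 ± 0.11 and 0.28 ± 0.14 (SE). Their relative *Dhx58* (LGP2) rose in ABX mice by 0.78 ± 0.23 (adjusted p = 0.0177), and *Eif2ak2*, the kinase PKR, rose in GF mice by 0.64 ± 0.20 (adjusted p = 0.0273).

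With all mice, the IFIT and OAS families held the 3 genes with the largest spread between mice on the log2 scale. Of these, *Oasl1* and *Oas2* had low means of 0.36 and 0.83 log2 CPM, and low counts widen the spread on this scale. Members of these families at higher means, *Oas1a* and *Ifit2*, had SDs of 0.78 and 0.90. The 4 IFIT genes, whose products bind foreign RNA and block its translation, all rose on the average over housings, but only *Ifit2* rose in each housing, by 2.57 ± 0.61, 1.94 ± 0.59 and 2.61 ± 0.55 (log2, SE, adjusted p = 0.00861, 0.0229 and 0.00133). *Ifit3* stood at 2.26, 2.98, 2.17, 2.47 and 3.44 log2 CPM in SPF WT, at 2.31, 1.37, 5.24 and 2.05 in GF WT, at 4.55, 4.45 and 4.36 in SPF 5xFAD and at 3.96, 4.36, 6.30, 5.01 and 4.14 in GF 5xFAD mice. SPF mice of both genotypes did not overlap for *Ifit3*, yet the test did not pass (adjusted p = 0.147), while it did in ABX mice (adjusted p = 0.00699). *Ifit1* (chr19:34640871-34650009, plus strand) had the largest SD between mice of a group, 1.87 on the log2 scale, and 1.19 without FAD_GF_181. Its reads numbered 0 in FAD_GF_181 but 248, 1245, 460 and 292 in the other GF 5xFAD mice, and 5 in WT_GF_231 against 334 in WT_GF_230. *Ifit1* passed only on the average, with 1.81 ± 0.49 (log2, SE, adjusted p = 0.00602).

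The 5 OAS genes encode 2′-5′-oligoadenylate synthetases, which sense double-stranded RNA, and relatives of them. *Oas1a* (chr5:120896256-120907521, minus strand) rose 5.72-fold, 6.27-fold and 6.51-fold in SPF, GF and ABX mice with adjusted p of 0.000375, 8.55e-05 and 2.01e-05, and by 2.62 ± 0.25 (log2, SE, adjusted p = 1.98e-09) on the average. It lay at 1.09 to 1.69 log2 CPM in SPF WT and at 3.90, 3.84 and 3.99 in SPF 5xFAD mice, and at 1.86, -1.08, 2.97 and 1.07 in GF WT and 3.98, 4.37, 4.98, 4.84 and 3.55 in GF 5xFAD mice. ABX WT mice lay between 0.69 and 1.98 and ABX 5xFAD mice between 3.37 and 4.91. *Oas1a* thus kept the genotypes apart in each housing. *Oasl2* rose in all 3 housings by 3.22, 2.58 and 2.98 on the log2 scale (adjusted p = 0.00054, 0.00198 and 0.000207). *Oas2* (chr5:120730333-120749853, minus strand) rose in SPF and ABX mice by 3.26 ± 0.93 and 3.18 ± 0.85 (log2, SE, adjusted p = 0.0387 and 0.0105). In GF WT mice, *Oas2* ranged from 0 reads in WT_GF_229 and WT_GF_231 to 138 in WT_GF_230, and the difference there was 1.47 ± 0.85 (adjusted p = 0.272). *Oas3* (chr5:120753098-120777661, minus strand) was nearly silent in WT mice. It had 0 reads in 11 of the 14 WT mice and 16, 50 and 3 reads in WT_SPF_936, WT_GF_230 and WT_ABX_909, against 11 to 161 reads in every 5xFAD mouse, and it rose in ABX mice (adjusted p = 0.00206) and on the average (adjusted p = 0.000144). With so few WT reads its fold change rests on the prior count and is not given. *Oasl1* (chr5:114923240-114937915, plus strand) varied between -3.33 and 4.21 log2 CPM and passed only on the average, with 2.30 ± 0.60 (log2, SE, adjusted p = 0.00478).

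*Isg15*, a ubiquitin-like modifier, and *Usp18*, which removes it and restrains the interferon receptor, rose in ABX mice by 1.59 ± 0.47 and 1.87 ± 0.44 (log2, SE, adjusted p = 0.0212 and 0.00383). *Usp18* also rose in GF mice (adjusted p = 0.0477). In SPF mice 0 of the 3 genes of this system passed, although the largest log2 difference among them was 1.58, against 1.37 in GF mice. No difference of the genotype effect between housings passed for these genes. *Isg15* stood at 2.05, 1.29, 2.06, 1.79 and 2.38 log2 CPM in SPF WT and at 2.89, 3.00 and 3.04 in SPF 5xFAD mice, which did not overlap, with a difference of 1.04 ± 0.54 (adjusted p = 0.387). *Rsad2*, the antiviral enzyme viperin, rose in ABX mice by 2.79 ± 0.81 (adjusted p = 0.019), and its neighbour *Cmpk2* and the exonuclease gene *Isg20* rose only on the average over housings. Of the large GTPases, *Mx2*, annotated as a polymorphic pseudogene, rose in ABX mice by 0.89 ± 0.29 (adjusted p = 0.0388), *Mx1* rose only on the average and *Gbp2* passed in none of the 4 comparisons of genotype. In the Schlafen family, *Slfn5* rose in SPF and GF mice by 2.94 ± 0.72 and 2.49 ± 0.73 (adjusted p = 0.0116 and 0.0181) and *Slfn2* in ABX mice by 1.05 ± 0.25 (adjusted p = 0.00467). *Slfn8* showed an average difference of -0.04 ± 0.10 (adjusted p = 0.848).

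*Ifi44* (chr3:151730922-151749960, minus strand), a cytoplasmic interferon-induced protein, was close to absent from WT microglia. It had no reads in 10 of the 14 WT mice, 5 and 2 reads in WT_SPF_928 and WT_SPF_936, 3 in WT_GF_231 and 46 in WT_ABX_932, but 10 to 144 reads in every 5xFAD mouse. The gene rose in SPF, GF and ABX mice with adjusted p of 0.0101, 0.00287 and 0.0206. *Rtp4*, a chaperone of receptors, rose 2.7-fold, 2.24-fold and 2.6-fold (adjusted p = 0.0344, 0.0384 and 0.00732). *Xaf1*, an antagonist of XIAP, rose in GF mice by 1.07 ± 0.31 (log2, SE, adjusted p = 0.0159). *Trim30a* rose only on the average, by 0.30 ± 0.08 (adjusted p = 0.007), and *Ifi35* and *Parp14* passed in none of the 4 comparisons of genotype.

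Per length, the list spanned a wide range of levels. Over the 28 mice *Bst2* was the highest with 102 CPM per kb of exons, followed by *Ifi27l2a* with 70.2 and *Ifitm3* with 45.7. *Oas3*, *Ifi44* and *Oas2* were the lowest with 0.204, 0.264 and 0.817 CPM per kb. By group, *Ifi27l2a* went from 7.28 CPM per kb in SPF WT to 100 in SPF 5xFAD mice and *Bst2* from 58 to 128, and in GF 5xFAD mice the mean of *Ifi27l2a* passed that of *Bst2*, at 167 ± 36.2 CPM per kb (SD, n = 5), by less than the SD of either. The order over all mice thus pools genotypes, and in SPF WT mice *Ifi35*, *Slfn8* and *Trim30a*, at 30.1, 20.8 and 19.6 CPM per kb, lay above *Ifi27l2a* and above *Ifitm3* at 6.44.

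Several genes share sequence with relatives, and their counts are uncertain to that extent. Of all 50-base stretches in their GENCODE M21 transcripts, 57.6% were shared with other genes for *Oas1a*, all of them with *Oas1g*. For *Ifit3* and *Ifit3b* the shares were 51.2% and 45%, nearly all between the pair, for *Phf11b* 47% and for *Ifi204* 20%. In 11 of the 42 genes the share exceeded 10%, and among those without any shared stretch were *Bst2*, *Irf7*, *Ifi44*, *Oas2* and *Oasl1*. The libraries do not mark the strand, so reads from *Slfn5* and *Dhx58* and from the antisense genes over them cannot be told apart.

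The spread between mice was itself large. The median SD of the 42 genes between mice of a group was 0.60 on the log2 scale, against 0.33 for all genes tested, and among genes with a mean of at least 3 log2 CPM it was 0.40 for 28 of the list against 0.23 for 8928 in all. It differed by group. In SPF, GF and ABX WT mice the median SD of the list was 0.32, 0.79 and 0.43, where that of all genes tested was 0.23, 0.28 and 0.29. In the 5xFAD mice of the same housings it was 0.13, 0.64 and 0.63, where that of all genes tested was 0.23, 0.34 and 0.38. SPF 5xFAD mice, with n = 3, were the only group in which the list varied less than all genes. After *Ifit1* at 1.87, *Oasl1* and *Oas2* had the largest pooled SD, 1.71 and 1.49. The SD of *Ifit1* rests on FAD_GF_181 with 0 reads, and without this mouse it was 1.19, below *Oasl1* at 1.56, *Oas2* at 1.49, *Rsad2* at 1.39 and *Slfn5* at 1.32.

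**Figure D4:**
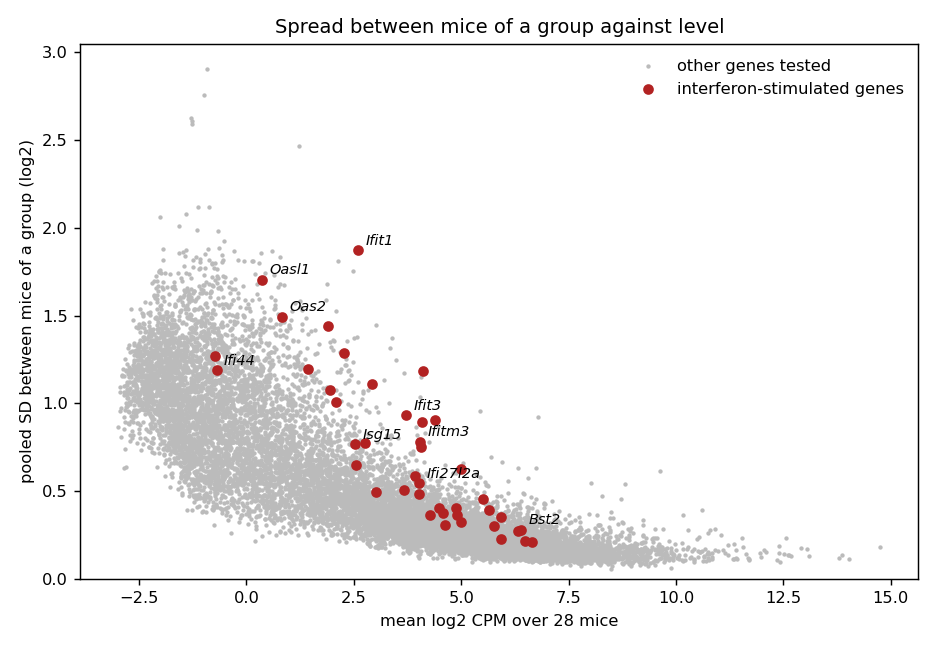
Pooled SD between mice of a group (vertical axis, log2 units) against mean log2 CPM over 28 mice (horizontal axis) for the interferon-stimulated genes in red and the other genes tested in grey, 1 point per gene. Most red points lie in the upper part of the grey cloud at their level, with *Ifit1* highest at an SD of 1.87, or 1.19 without mouse FAD_GF_181.

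This spread ran through most of the list in the same mice. Mouse FAD_ABX_1452 was the highest of the 6 ABX 5xFAD mice for 37 of the 42 genes, against 12.5% of all genes tested, and its mean of 5.58 log2 CPM lay a whole unit above the next at 4.58. Mouse FAD_GF_184 was highest of its group for 35 genes, against 20.3% of all genes, with a mean of 5.33. WT_GF_230 led for 37 genes and WT_SPF_936 for 24, against 24% and 18% of all genes. At the other end, WT_GF_229 was lowest of its group for 22 genes and FAD_GF_201, the mouse with conflicting labels, for 20, against 22.4% and 20.7% of all genes. Without FAD_GF_201 20 genes rose in GF mice in place of 18. Border-associated macrophage markers summed to 242 CPM in FAD_ABX_1452, the highest of all mice, but to 21.5 CPM in FAD_GF_184 and 36.7 CPM in WT_GF_230, within the range of their groups. Neutrophil markers were at 0 in these 3 mice. In WT_GF_230 *Ifi27l2a* and *Lgals3bp*, a further interferon-stimulated gene, stood at 2.58 and 7.53 log2 CPM, within the other GF WT mice at 1.91 to 3.18 and 6.93 to 7.59.

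**Figure D5:**
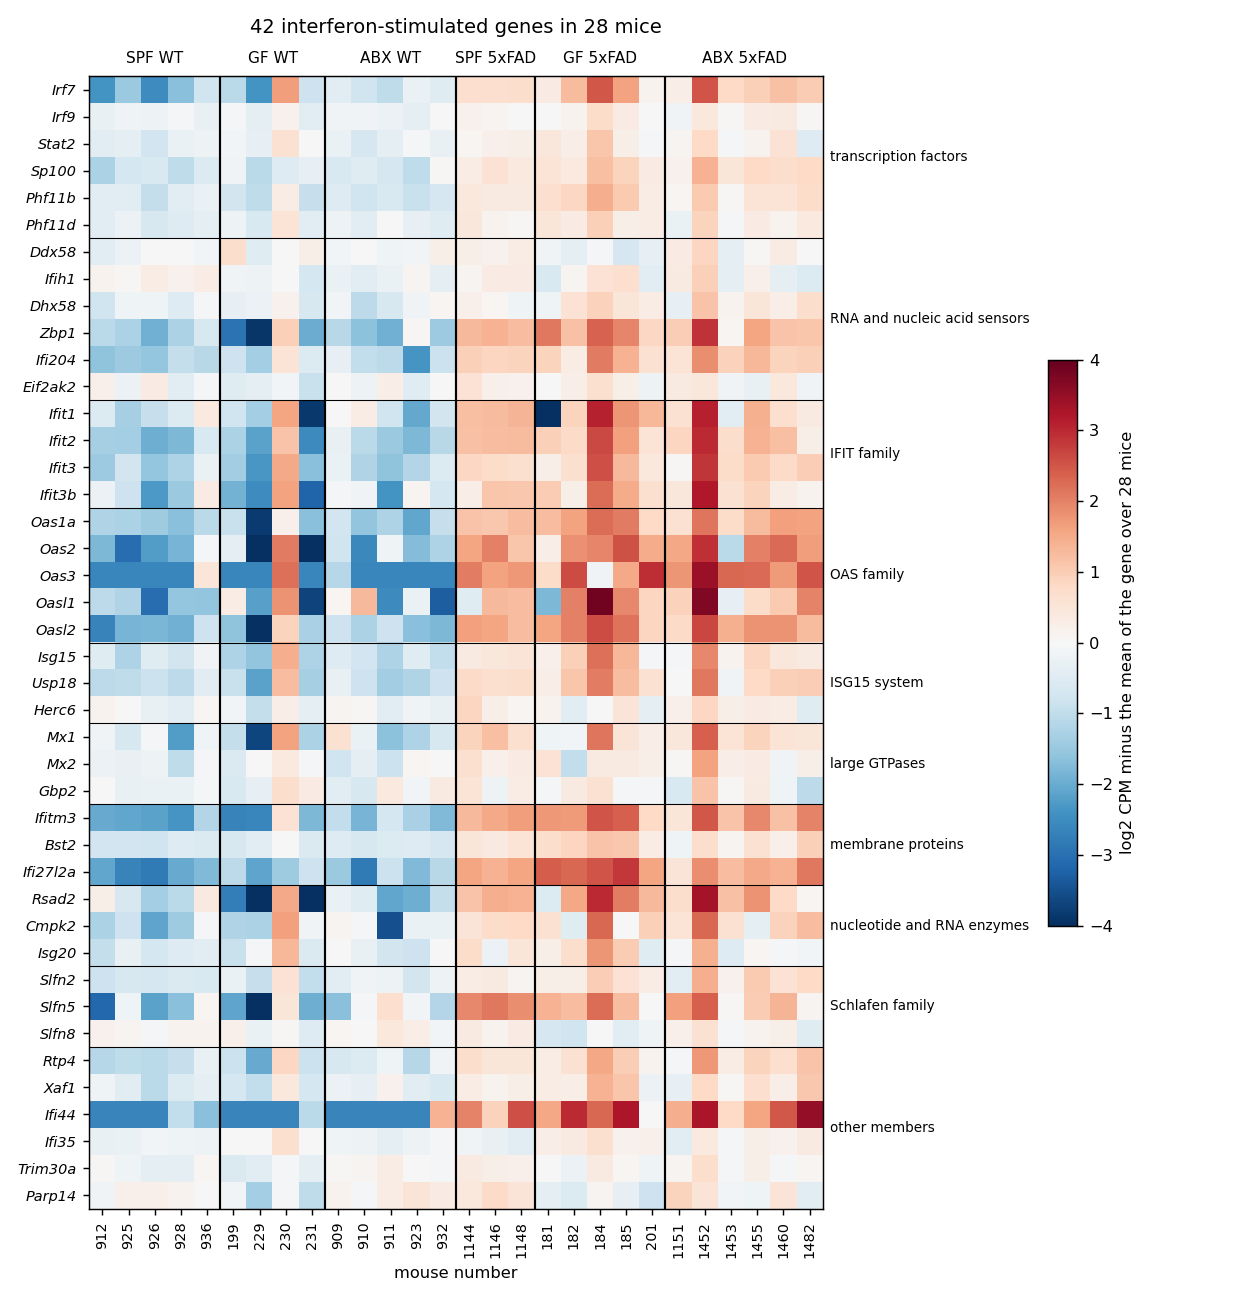
Level of each of the 42 genes (rows, by role) in each of 28 mice (columns, by group and number), as log2 CPM minus the mean of the gene over all mice, with colours capped at 4 units in either direction. WT mice are mostly blue and 5xFAD mice mostly red, and mouse 230 is red for most rows among the GF WT mice.

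Between housings, the counts of genes that passed stayed near or below the share of all genes. Between GF and SPF WT mice 0 of the 42 genes passed, where 1.62% of all genes did, and 8 had an unadjusted p under 0.05 (edgeR), as did 16.6% of all genes tested. The lowest p was that of *Irf7*, whose log2 difference of 1.79 ± 0.56 (SE) had an adjusted p of 0.0954 (edgeR) and passed in DESeq2. DESeq2 raised 2 genes here, and voomWithQualityWeights called 1 in each direction. The median log2 difference was 0.41 with all mice and -0.29 without WT_GF_230. Between ABX and SPF WT mice 0 passed, with 0% of all genes, and 1, *Ifi27l2a*, had an unadjusted p under 0.05, as did 4.49% of all genes (log2 difference 0.78 ± 0.31, adjusted p = 1). DESeq2 and voomWithQualityWeights called 0 as well. *Parp14*, an ADP-ribosyltransferase, was the only gene to pass between ABX and GF WT mice, where 6.88% of all genes passed, and DESeq2 and voomWithQualityWeights each called 2. It lay at 5.54, 4.28, 5.58 and 4.64 log2 CPM in GF WT and at 5.80, 5.60, 5.95, 6.16 and 5.99 in ABX WT mice, and rose by 0.79 ± 0.24 in the latter (adjusted p = 0.0455). The call was lost without each of 7 mice, among them every ABX WT mouse and WT_GF_229 and WT_GF_231.

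In 5xFAD mice, GF against SPF housing moved 3 of the 42 genes, and 12.8% of all genes tested. *Ifi35*, an adaptor that binds other interferon-induced proteins, rose from 5.79, 5.62 and 5.48 log2 CPM to 6.19, 6.27, 6.57, 6.08 and 6.13, by 0.63 ± 0.16 (log2, SE, adjusted p = 0.0124, edgeR). *Parp14* fell from 6.08, 6.43 and 6.18 to 5.28, 5.11, 5.76, 5.31 and 4.82 (log2 difference -0.95 ± 0.25, adjusted p = 0.0145), and *Slfn8* from 6.66, 6.47 and 6.65 to 5.65, 5.52, 6.32, 5.86 and 6.13 (log2 difference -0.67 ± 0.18, adjusted p = 0.0166). DESeq2, voomWithQualityWeights and a fit of these groups alone each called 5 genes. Without FAD_SPF_1148 none of the 3 passed, and without FAD_SPF_1146 only *Slfn8* did. Neutrophil markers were present in these SPF 5xFAD mice and at most at 0.0495 CPM in the GF 5xFAD mice, and their part in the result was not tested. Facility and numbering pattern differed between these groups as well. Between ABX and SPF 5xFAD mice 0 of the 42 genes passed, with 0% of all genes, and only *Ifi35* had an unadjusted p under 0.05, as did 7.09% of all genes (log2 difference 0.42 ± 0.16, adjusted p = 0.635). DESeq2 and voomWithQualityWeights also called 0. Between ABX and GF 5xFAD mice, where 10.6% of all genes passed, *Slfn8* rose by 0.53 ± 0.16 and *Ddx58* by 0.56 ± 0.17 in ABX mice and *Ifi27l2a* fell, with a log2 difference of -0.86 ± 0.26 (adjusted p = 0.0265, 0.0339 and 0.0323). None of the 3 passed without FAD_GF_182 or FAD_GF_185 or in a fit of these groups alone, and 1 passed without FAD_GF_181, FAD_ABX_1151, FAD_ABX_1452 or FAD_ABX_1460. Without FAD_ABX_1482, 5 genes passed. Scaling by library size alone turned the sign of 5 of the 42 differences in this comparison.

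The difference between genotypes was compared between housings as well. None of the 42 genes passed for GF against SPF, ABX against SPF or ABX against GF mice, where 0%, 0% and 1.76% of all genes did, and 1, 0 and 2 had an unadjusted p under 0.05, as did 8.52%, 6.75% and 15.9% of all genes tested. DESeq2 and voomWithQualityWeights called 0 in all 3. The median log2 differences were -0.20, -0.02 and 0.19, and without WT_GF_230 the first was 0.41 and the third -0.57. *Ddx58* had the lowest p in the comparisons of GF with SPF and ABX with GF mice, with log2 differences of -0.87 ± 0.28 and 0.78 ± 0.26 (SE) and adjusted p of 0.434 and 0.112. For *Ifi27l2a* these differences were -0.10 ± 0.45, -0.78 ± 0.44 and -0.68 ± 0.42 (SE). A p that misses the threshold does not show that the genotype effects were equal.

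Upstream of these genes, interferon transcripts were scarce. Of 18 type I interferon genes, 12 had no read in any library and all 18 together had 167 reads over 28 mice, of which *Ifnb1* held 154 in 9 libraries, at most 51 in 1. *Ifnb1* alone was tested and passed in none of the comparisons of genotype. *Ifng*, *Ifnl2* and *Ifnl3* had no reads, so their transcripts were not detectable at this depth. Both receptor chains were well expressed. *Ifnar1* stood at 7.13 to 7.35 log2 CPM as a group mean and passed in none of the 4 comparisons of genotype, with an average difference of 0.11 ± 0.06 (SE, adjusted p = 0.182). *Ifnar2* rose on the average by 0.27 ± 0.04 (adjusted p = 1.77e-05), and most in GF mice, from 8.01 to 8.09 in WT to between 8.38 and 8.67 in 5xFAD mice. Its group means went from 8.08 to 8.27 in SPF and from 8.08 to 8.20 in ABX mice, and 0 receptor genes rose in SPF mice. *Ifngr1*, a chain of the interferon-gamma receptor, had an average log2 change of -0.40 and fell (adjusted p = 2.56e-08), while its other chain *Ifngr2* rose by 0.18 ± 0.04 (log2, SE, adjusted p = 0.00154).

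The other lists of the pathway were counted on the average over housings, where 14.3% of all genes tested rose and 10.8% fell. Of 11 tested genes for sensing upstream of interferon, 0 rose and 4 fell on the average over housings. These were *Tmem173* (STING), *Mb21d1* (cGAS), *Tlr3* and *Myd88*, with a log2 change of -0.45 ± 0.06 (SE, adjusted p = 8.17e-07) for *Tmem173*. Of 5 IRF factors outside the list *Irf8* rose and *Irf1*, *Irf2* and *Irf5* fell on the average. Of 7 tested genes that restrain the pathway or degrade nucleic acids, 2 rose and 3 fell. A further 33 tested interferon-stimulated genes rose in 18 cases and fell in 1, *Gbp3*, with a median log2 fold change of 0.41. *Lgals3bp*, a secreted glycoprotein, had the lowest adjusted p of these with 2.41 ± 0.09 (log2, SE, adjusted p = 2.14e-18), followed by *Ifitm2* with 3.72 ± 0.29 (adjusted p = 2.66e-11) and *Oas1g* with 4.29 ± 0.46 (adjusted p = 1.54e-08). Of 15 tested genes linked to interferon-gamma 5 rose and 2, *Gbp7* and *Irgm2*, fell, and *Nlrc5*, a regulator of MHC class I genes, rose by 1.51 ± 0.20 (adjusted p = 7.55e-07).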

How the data were processed

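RNA of FACS-isolated hippocampal microglia was sequenced from 28 mice with single reads of 50 bases, from 1 SMARTer and Nextera XT library per mouse. The authors used STAR for alignment and featureCounts with GENCODE M21 for counting, and the deposited values are raw counts without normalization. Per the labels the versions were STAR 2.7.2 and featureCounts 1.6.2, and the build field names GRCh38.p12, a human build, where the methods and the coordinates of the table give GRCm38. The 92 spike-in entries held at most 12 reads in a library and were left out. Gene lengths in the table are summed exon lengths.

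The members and lists were chosen with earlier results of these data known, and no p-value was adjusted over a list alone. Groups came from the labels. Counts were tested in R 4.3.3 with edgeR 4.0.16 (TMM, quasi-likelihood test, genes kept by filterByExpr at 10 counts and a total of 15) in 1 model with 6 groups, with Benjamini-Hochberg adjustment over 15298 genes and a threshold of 0.05. Log2 CPM values used a prior count of 2, at which 0 reads give -3.33, and marker sums are CPM on library totals. Depth ranged from 14441610 to 29977395 counts, so a gene without reads was below 0.1 to 0.208 CPM in a library (3 counts, counting error only). Each library is from a separate mouse, and no pair within a group agreed within sampling noise.

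Named genes were, in each comparison, up to 4 genes of lowest adjusted p in each direction (or the 1 of lowest p where none passed), the 3 of highest and lowest level per length, the 3 of largest SD, and of the pathway lists *Ifnar1*, *Ifnar2* and those of lowest adjusted p. Some genes and 1 marker of the gate are not reported here. Other genes were named to describe their role. The values shown for *Ifit3*, *Isg15*, *Lgals3bp* and the exceptions in a list were picked after values were seen. A step on protein identity was replaced by shared 50-base stretches of transcripts. Alternatives were RLE or library size scaling, other filters, DESeq2 1.42.0, voomWithQualityWeights of limma 3.58.1, length offsets, only the groups compared, 26 mice and leaving out each mouse. The scripts were tested on simulated data. Figures were drawn with matplotlib 3.10.9.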

Additional observations from a re-analysis of the deposited data

Results flagged for a closer look

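Among 85 sets of values (named genes and the mean over the list, each in a group of 4 to 6 mice), 12 held a mouse far from the others of its group by Dixon's test, where chance gives about 1 in 20. The count is no measure of an excess over chance. In 5 of the 12, all for *Oas3* or *Ifi44* in WT mice, every other mouse of the group had 0 reads, so that any read at all stood apart, and *Ifit1*, *Oasl1* and *Oas2* were named for their large SD. The mean over the list was 5.58 log2 CPM in FAD_ABX_1452, against 4.58 in the next ABX 5xFAD mouse. In GF WT mice, WT_GF_230 stood out with 6.57 for *Ifi35* and 1.48 for *Oas3*, and WT_GF_231 with -1.77 for *Ifi44*. In SPF WT mice, WT_SPF_936 stood out with 2.88 for *Ifitm3* and -0.24 for *Oas3*, and WT_SPF_926 with 6.23 for *Slfn8* and -2.69 for *Oasl1* at the low end. WT_ABX_909 had -1.88 for *Oas3* and WT_ABX_932 had 0.69 for *Ifi44*, where the other ABX WT mice had no reads. Low values were -3.33 for *Ifit1* in FAD_GF_181, which had 0 reads, and -0.24 for *Oas2* in FAD_ABX_1453.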

How the results depend on the processing

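Counts of genes called stayed within 1.5 times of the reported value in 248 recalculations and moved further in 36, and none of the recalculated differences of named genes reversed, although differences near 0 that were not among them did, since over 26 mice *Slfn8* and *Parp14* had log2 values of 0.11 and -0.04 for 5xFAD against WT in ABX mice in place of -0.004 and 0.01. For 5xFAD against WT mice, 34 genes rose in SPF mice in a fit of the groups compared and 29 with voomWithQualityWeights, and on the average 23 rose with at least 10 counts in every library, where fewer genes are tested. For GF against SPF WT mice, 1 gene passed with no filter, 2 with DESeq2 and 2 with voomWithQualityWeights. For ABX against GF WT mice, 2 passed with library size scaling, with at least 10 counts in every library, with DESeq2, with voomWithQualityWeights and in the groups compared. For GF against SPF 5xFAD mice, 5 passed with DESeq2, with voomWithQualityWeights and in the groups compared, and for ABX against GF 5xFAD mice 0 in the groups compared. The cause was not tested. Leaving out each mouse gave 11 to 16, 10 to 31, 18 to 26 and 34 to 36 genes for 5xFAD against WT in SPF, GF, ABX and all mice, 0 to 2 for ABX against GF WT, 0 to 4 for GF against SPF 5xFAD and 0 to 5 for ABX against GF 5xFAD mice, and 0 in the other comparisons. For the named genes, 592 recalculations kept their side of the threshold, 34 lost it and 2 gained it.

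Scaling by library size moved the median of all genes in GF 5xFAD against GF WT mice by -0.125 on the log2 scale, with 1107 genes higher and 1919 lower in place of 1442 and 949, and 13 of the 42 genes rose and 1 fell there. No paired analysis was possible because the groups share no replicate numbers. Depth limits *Oas3*, *Ifi44* and the interferon genes, which had 0 or few reads in most mice.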
